A study of Mus musculus with 6 samples.

Results

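The 40 cell cycle and DNA replication genes described here are named members of the machinery that copies DNA and divides a cell, matched by gene name in a table of 46450 gene symbols. All 40 were in the table. The data are RNA sequencing of cardiomyocytes, the contractile cells of the heart, isolated from the hearts of C57BL/6 mice aged 3 months. There were 3 libraries from TFEB-/- mice, named here TFEB-/- 1, 2 and 3, and 3 from wild-type mice, named wild type 1, 2 and 3. TFEB is a transcription factor whose known targets are genes of lysosomes and autophagy. How the Tfeb gene was inactivated, and in which cells, is not given in the sources used here, nor is it stated that each library came from a separate animal, so p-values measure only the spread between these libraries.

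Values are taken to be CPM, counts scaled to a common library total. Whether they were scaled by transcript length is not given in the sources used here. All are whole numbers, taken to be rounded by the authors. A gene at 1 CPM may thus lie anywhere from 0.5 CPM above to 0.5 CPM below that, and the read depth behind a value is unknown, since the labels give read pairs only as a range over the samples. Sums per library lay between 999505 and 999655 CPM, with 12444 to 12664 genes at 1 CPM or more in TFEB-/- and 12070 to 12264 in wild type. Tfeb was at 6, 5 and 7 CPM in TFEB-/- 1, 2 and 3, against 17, 30 and 23 CPM in wild type 1, 2 and 3 (log2 fold change −1.85, SE 0.24, adjusted p = 0.0267 in limma). Of 13 alternatives, 7 kept Tfeb past the threshold. The replicate block did not (adjusted p = 0.112), nor did leaving out any 1 of the TFEB-/- libraries, or wild type 2 or 3 (adjusted p = 0.0589 to 0.109). Its log2 fold change lay between −2.09 and −1.65 throughout, and the groups did not overlap. All 10 cardiomyocyte markers examined were detected in every library, among them the myosin Myh6 at 21323 to 33390 CPM in TFEB-/- and 18996 to 28979 CPM in wild type. Transcripts of the mitochondrial genome took 22.2% to 30.3% of the TFEB-/- libraries and 30.7% to 44.6% of the wild-type libraries. Over all 12437 tested genes the log2 fold change had a median of 0.24, and of 0.01 after each library was rescaled by its median ratio.

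A dividing cell passes from the growth phase G1 into DNA synthesis (S), then through G2 into mitosis (M). D-type cyclins with the kinases Cdk4 and Cdk6, and then E-type cyclins with Cdk2, inactivate the retinoblastoma protein Rb1, which frees E2F factors to switch on genes of DNA synthesis. The ring of Mcm proteins is loaded onto DNA and unwinds it. Adult mouse cardiomyocytes rarely divide, and most genes of mitosis are known to be nearly silent in them.

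The first TFEB-/- library stood apart in these genes, with the replicative helicase, E2f1 and the mitotic genes well above their levels in the other 5 libraries. The 40 genes summed to 565, 298 and 354 CPM in TFEB-/- 1, 2 and 3, against 246, 231 and 201 CPM in wild type 1, 2 and 3. The sum of TFEB-/- 1 was thus the highest, and those of TFEB-/- 2 and 3 lay between it and wild type. Without that library the median log2 fold change was 0.69 for G1 cyclins and kinases and 0.52 for the helicase group, against 0.85 and 0.91 with all 6 libraries. Cdk6 and Uhrf1 were the members that passed the test across all genes. In RNA from a cell preparation, more cells of a kind and more transcript per cell cannot be told apart.

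**Figure D1:**
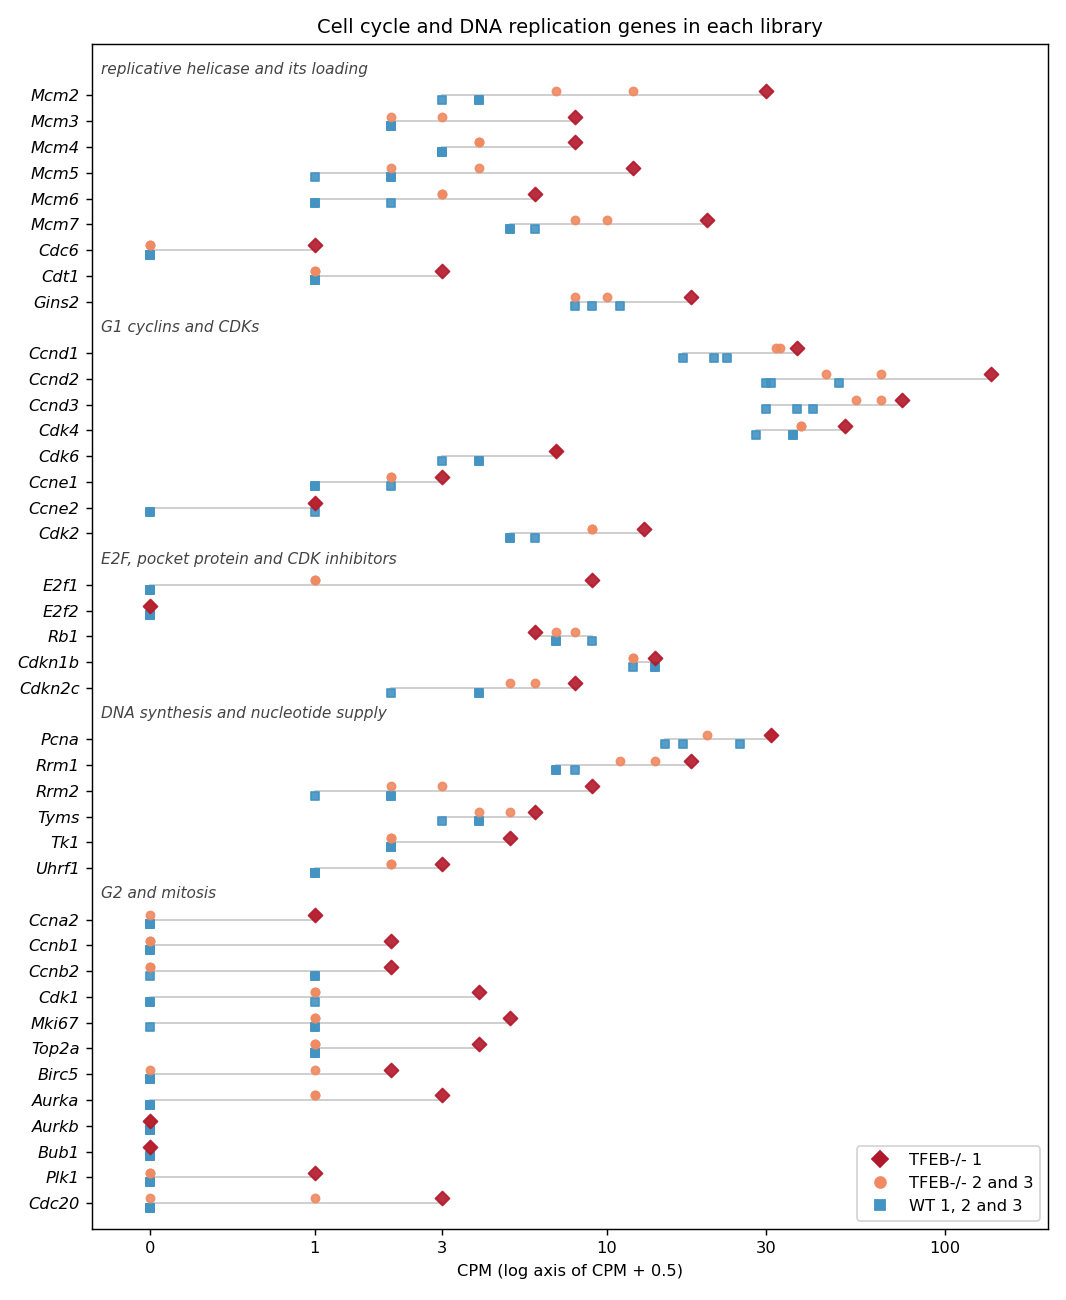
CPM of the 40 genes in each library, on a log axis of CPM + 0.5, grouped by role; diamonds are TFEB-/- 1, circles TFEB-/- 2 and 3, and squares the 3 wild-type libraries, and libraries with equal values lie on top of each other. The diamond lies furthest right, without a tie, for 31 of the 40 genes.

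The genes differed in how far they could be tested. Bub1, Aurkb and E2f2 were listed at 0 in all 6 libraries. Bub1 is a kinase of the spindle checkpoint, Aurkb a kinase of chromosome segregation and E2f2 a relative of E2f1. A further 6 genes, Cdc6, Ccna2, Ccnb1, Birc5, Plk1 and Cdc20, were above 0 in at least 1 library but did not reach 1 CPM in 3. The other 31 genes were tested with all others by limma on log2(CPM + 0.5). Of these, E2f1 and Aurka reached the filter through the TFEB-/- libraries alone, so counts and medians over the 31 are descriptions of genes that could be tested.

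Of the 31 tested genes, 2 were higher in TFEB-/- at an adjusted p below 0.05 and 0 were lower. Among all 12437 tested genes, 3.92% were called higher and 0.523% lower. Of these 552 called genes, 164 had no spread within either group in the whole-number values. An unadjusted p below 0.05 was found for 12 of the 31, none of them lower, against 23.3% of all genes in either direction. All 3 TFEB-/- libraries lay above all 3 wild-type libraries in 14 of the 31, a share of 45.2% where all genes gave 21.2%, and below them in 0, where all genes gave 2.28%. With TFEB-/- 1 set aside, TFEB-/- 2 and 3 lay above all wild-type libraries in 14 genes, where all genes gave 22.7%. They are the same 14. Setting a library aside could not remove any of them, and it added no other gene. E2f1 and Aurka are among these 14, and among the 12 with an unadjusted p below 0.05. As both reached the filter through the TFEB-/- libraries alone, the filter fixed their lack of overlap in advance. The median log2 fold change of the 31 was 0.86, and 0.84 without E2f1 and Aurka, beside the 0.24 of all genes.

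Promoters were read to see which letters known from cell cycle promoters lie beside these genes. Windows of 300 bases, from 250 before to 50 after the annotated start, were taken from RefSeq (GRCm38.p6) for 32 of the 40 genes, in 37 windows. Not matched were Ccna2, Ccnd1, Ccnd2, Ccne2, Rb1, Gins2, Mcm4 and Aurkb. The letters of the E2F site searched were TTTGGCGC, TTTCCCGC, TTTGCCGC and TTTCGCGC on either strand. They were found in 10 of the 37 windows, or 27%, against 2.26% of 32851 windows of all genes. The 10 windows belonged to Mcm3, Mcm5, Mcm6, Mcm7, Cdc6, Cdt1, Cdk1, Cdk2, E2f2 and Uhrf1. Mcm7, E2f2 and Uhrf1 each had a further window, at another annotated start, without such a match. Of the 37 windows, 33 have the bases after their start in a GENCODE M21 transcript, and those of Mcm5 and Mcm6 are among the 4 that do not, so their starts are those of RefSeq alone. The stretches that lie before the start are shown for the 7 of these genes that have such a match there, written 5′ to 3′ on the strand of the gene, with the E2F letters in capitals.
Mcm5, chr8:75109326-75109397, plus strand: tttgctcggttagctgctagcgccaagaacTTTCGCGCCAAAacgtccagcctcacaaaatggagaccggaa
Mcm6, chr1:128359715-128359845, minus strand: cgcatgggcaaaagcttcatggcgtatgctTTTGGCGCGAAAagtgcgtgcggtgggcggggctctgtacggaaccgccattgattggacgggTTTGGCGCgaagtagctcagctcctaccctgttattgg
Mcm7, chr5:138172011-138172078, minus strand: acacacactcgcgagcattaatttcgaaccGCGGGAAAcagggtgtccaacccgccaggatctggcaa
Cdc6, chr11:98907983-98908050, plus strand: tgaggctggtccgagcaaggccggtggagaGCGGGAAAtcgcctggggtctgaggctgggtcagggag
Cdk1, chr10:69353006-69353073, minus strand: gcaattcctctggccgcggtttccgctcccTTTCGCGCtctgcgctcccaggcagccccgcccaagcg
Cdk2, chr10:128705154-128705221, minus strand: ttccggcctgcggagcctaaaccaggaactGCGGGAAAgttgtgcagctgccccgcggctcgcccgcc
Uhrf1, chr17:56304098-56304165, plus strand: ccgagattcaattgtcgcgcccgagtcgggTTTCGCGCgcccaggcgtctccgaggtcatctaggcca
In Mcm5 and Mcm6 a pair of matches on opposite strands overlap in one run of capitals. Mcm6 has a further match whose first base lies 47 bases before the start.

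Other letters were also counted. The CCAAT box, read as CCAAT on either strand, was found in 26 of the 37 windows (70.3%, against 37.4% of all windows). The CHR element of genes that peak in G2 and mitosis, read as TTTGAA on either strand, was in 9 (24.3%, against 17.9%), among them those of Mcm2, Mki67, Top2a, Plk1, Aurka and Cdk1. The core of the E-box that TFEB binds, CACGTG, reads the same on both strands and was in 4 windows (10.8%, against 7.15%), those of Cdk4, Cdk6, Cdkn2c and Tyms. The stretches of both kinases of D-type cyclins are shown because this is the site known for TFEB, with CACGTG in capitals.
Cdk4, chr10:127063333-127063534, plus strand: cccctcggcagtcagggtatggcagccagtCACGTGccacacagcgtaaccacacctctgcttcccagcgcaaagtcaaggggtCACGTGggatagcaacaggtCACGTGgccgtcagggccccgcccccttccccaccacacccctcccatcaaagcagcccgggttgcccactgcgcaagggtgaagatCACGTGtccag
Cdk6, chr5:3343643-3343708, plus strand: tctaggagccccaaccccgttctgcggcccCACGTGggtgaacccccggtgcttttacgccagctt
The Cdk4 stretch holds 4 such matches and the Cdk6 stretch 1. A match of letters is a description of the sequence, and binding was not measured. The base composition of these windows and of those of all genes was neither compared nor matched.

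The replicative helicase was high in TFEB-/- 1. Mcm2, Mcm3, Mcm4, Mcm5, Mcm6 and Mcm7 form its ring. Mcm2 was at 30, 7 and 12 CPM in TFEB-/- 1, 2 and 3, against 4, 3 and 4 CPM in wild type 1, 2 and 3 (log2 fold change 1.78, SE 0.55, adjusted p = 0.152). The groups did not overlap, and the first TFEB-/- library held 3.16 times the mean of the other 2. Mcm7 showed the same order, at 20, 8 and 10 CPM in TFEB-/- 1, 2 and 3 and at 6, 5 and 5 CPM in wild type (log2 fold change 1.07, SE 0.36, adjusted p = 0.172). Mcm5 was at 12, 2 and 4 CPM in TFEB-/- and at 2, 1 and 2 CPM in wild type, with TFEB-/- 2 inside the wild-type range (log2 fold change 1.30, SE 0.65, adjusted p = 0.278).

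In the other 3 subunits TFEB-/- 1 was again the highest library. Mcm6 was at 6, 3 and 3 CPM in TFEB-/- 1, 2 and 3, against 1, 2 and 1 CPM in wild type (log2 fold change 1.27, adjusted p = 0.124). Mcm4 was at 8, 4 and 4 CPM in TFEB-/- and at 3 CPM in each wild-type library (log2 fold change 0.67, adjusted p = 0.235). Mcm3 was at 8, 2 and 3 CPM in TFEB-/- and at 2 CPM in each wild-type library (log2 fold change 0.75, adjusted p = 0.384). In Mcm4 the libraries TFEB-/- 2 and 3 lay 1 rounding step above wild type, and in Mcm3 the library TFEB-/- 2 was level with it. None of the 6 subunits passed the threshold in limma.

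Loading and activating factors of the helicase were above the wild-type range in TFEB-/- 1 and within it in TFEB-/- 2 and 3. Cdt1, which brings the ring to the origins of replication, was at 3 CPM in TFEB-/- 1 and at 1 CPM in each of the other 5 libraries. Cdc6, its partner in loading, was at 1 CPM in TFEB-/- 1 and listed at 0 elsewhere. Gins2, a subunit of the GINS complex that activates the helicase, was at 18, 10 and 8 CPM in TFEB-/- 1, 2 and 3, against 9, 11 and 8 CPM in wild type. Its groups overlapped, and its log2 fold change of 0.28 (adjusted p = 0.62) became −0.05 without TFEB-/- 1.

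Among G1 cyclins and their kinases, 5 of 8 genes had all TFEB-/- libraries above all wild-type libraries, and among the 8 tested helicase genes 4 did, where all tested genes gave 21.2%. Cdk6 rose to 7, 7 and 7 CPM in TFEB-/- 1, 2 and 3, against 3, 4 and 4 CPM in wild type (log2 fold change 0.86, SE 0.12, adjusted p = 0.0302). Its TFEB-/- libraries were level and did not overlap with wild type. The call passed in 5 of 13 alternatives. It was lost when any 1 of the TFEB-/- libraries, or wild type 2 or 3, was left out, at an adjusted p between 0.0719 and 0.11. Rescaling by the median ratio ended it too (adjusted p = 0.106), as did leaving out the mitochondrial transcripts (adjusted p = 0.104) and the replicate block (adjusted p = 0.102).

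Cyclins of the D type, which pair with Cdk4 and Cdk6, differed among themselves. Ccnd1 was at 37, 32 and 33 CPM in TFEB-/- 1, 2 and 3, against 23, 17 and 21 CPM in wild type (log2 fold change 0.74, SE 0.13, adjusted p = 0.0576). Ccnd3 was at 75, 55 and 65 CPM in TFEB-/-, against 37, 41 and 30 CPM in wild type (log2 fold change 0.84, SE 0.17, adjusted p = 0.0697). Neither gene overlapped between the groups, and in neither did TFEB-/- 1 stand far above the other 2 TFEB-/- libraries. Ccnd2 was at 136, 45 and 65 CPM in TFEB-/- and at 49, 30 and 31 CPM in wild type (log2 fold change 1.03, SE 0.47, adjusted p = 0.254). In Ccnd2 the first library was 2.47 times the mean of the other 2, and TFEB-/- 2 lay below wild type 1.

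Ccnd3 is the neighbour of the targeted gene among these 40. It lies on chromosome 17 (GRCm38, GENCODE M21) at 47505051 to 47599691, on the plus strand, and Tfeb at 47737030 to 47792419, on the same strand. The stretch between them measures 137 kb. In the limma fit above, neither Ccnd3 nor Ccnd1 passed the threshold. With median-ratio scaling Ccnd3 passed, at a log2 fold change of 0.61 (adjusted p = 0.0266), and Ccnd1 did not, at 0.50 (adjusted p = 0.0817). Cdk2, on chromosome 10, passed there too (adjusted p = 0.0403). When limma was limited to genes that averaged 5 CPM or more, Ccnd3 and Ccnd1 both passed (adjusted p = 0.0167 and 0.02). An effect of the position beside Tfeb was not tested.

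The kinases of G1 followed a similar order. Cdk2, the partner of E-type cyclins, was at 13, 9 and 9 CPM in TFEB-/- 1, 2 and 3, against 6, 5 and 5 CPM in wild type (log2 fold change 0.88, SE 0.17, adjusted p = 0.068), without overlap. Cdk4 was at 51, 38 and 38 CPM in TFEB-/- and at 36, 36 and 28 CPM in wild type (log2 fold change 0.34, SE 0.17, adjusted p = 0.283). The Cdk4 groups did not overlap, yet its log2 fold change was close to the 0.24 of all genes, and 0.10 with median-ratio scaling. The E-type cyclins were near the lowest levels that whole numbers can show. Ccne1 was at 3, 2 and 2 CPM in TFEB-/- and at 1, 2 and 1 CPM in wild type, and Ccne2 at 1 CPM in each TFEB-/- library and at 0, 1 and 0 CPM in wild type.

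**Figure D2:**
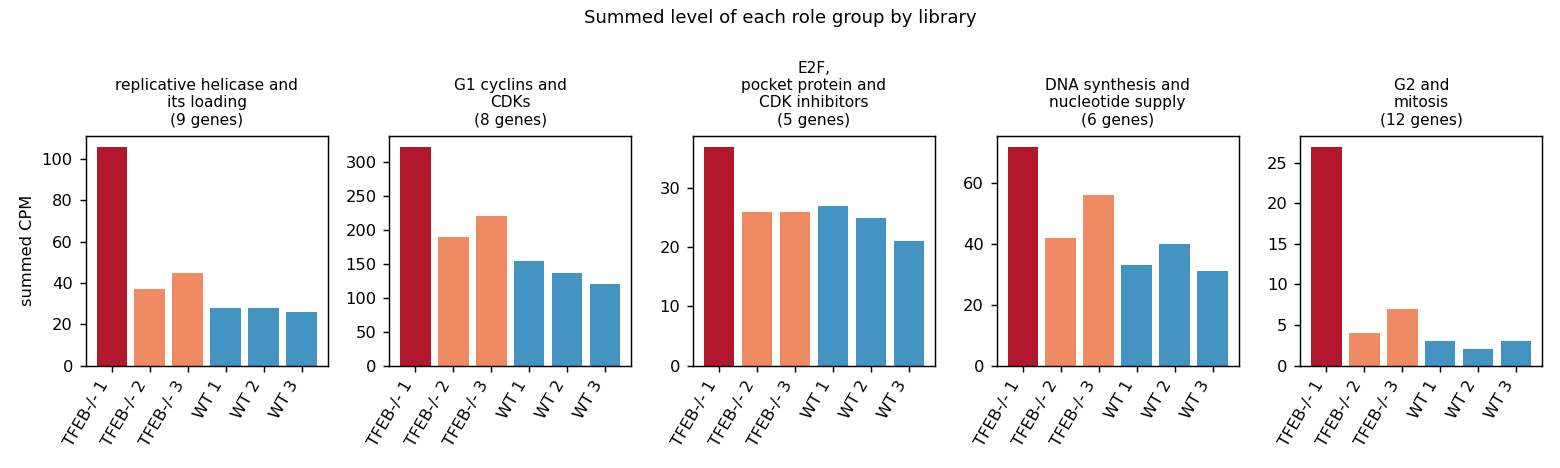
Summed CPM of the genes of each role in the 6 libraries, with a linear axis from 0 in each panel. TFEB-/- 1 is the highest bar in all 5 panels, with 106 CPM for the helicase group where TFEB-/- 2 and 3 hold 37 and 45 CPM and wild type 26 to 28 CPM.

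Among the regulators, E2f1 differed most between TFEB-/- 1 and the rest. E2f1, which activates genes of DNA synthesis, was at 9, 1 and 1 CPM in TFEB-/- 1, 2 and 3 and listed at 0 in each wild-type library. Its lack of overlap was fixed by the filter, and TFEB-/- 2 and 3 differed from wild type by 1 rounding step (adjusted p = 0.167 in limma). Without TFEB-/- 1 neither group had any spread, and the gene was called at 1 CPM against 0.

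Among the brakes on the cycle, Rb1 and Cdkn1b did not share the order of E2f1. Rb1, which holds E2F back, was at 6, 8 and 7 CPM in TFEB-/- 1, 2 and 3, against 9, 7 and 7 CPM in wild type (log2 fold change −0.12, SE 0.15, adjusted p = 0.636). The inhibitor Cdkn1b, known as p27, was at 14, 12 and 12 CPM in TFEB-/- and at 14, 14 and 12 CPM in wild type (log2 fold change −0.07, SE 0.10, adjusted p = 0.671). Both groups overlapped in both genes, and TFEB-/- 1 held the lowest value of Rb1. Cdkn2c, an inhibitor of Cdk4 and Cdk6 known as p18, was at 8, 5 and 6 CPM in TFEB-/-, against 4, 4 and 2 CPM in wild type. Its groups did not overlap and TFEB-/- 1 was its highest library (log2 fold change 0.86, SE 0.31, adjusted p = 0.188).

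Genes of DNA synthesis and nucleotide supply were split between an order by genotype and an order set by TFEB-/- 1. Uhrf1, which helps copy DNA methylation after replication, rose to 3, 2 and 2 CPM in TFEB-/- 1, 2 and 3, against 1, 1 and 1 CPM in wild type (log2 fold change 0.90, SE 0.15, adjusted p = 0.047). The difference was 1 rounding step in TFEB-/- 2 and 3, and the call passed in 1 of 12 alternatives, that without TFEB-/- 1, where neither group had any spread. Elsewhere its adjusted p was up to 0.145, and 0.0762 with median-ratio scaling. Rrm1, the large subunit of ribonucleotide reductase, was at 18, 11 and 14 CPM in TFEB-/- and at 7, 8 and 7 CPM in wild type, without overlap (log2 fold change 0.90, SE 0.19, adjusted p = 0.0788).

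Rrm2, the small subunit of the same enzyme, is made mainly in S phase. Rrm2 was at 9, 2 and 3 CPM in TFEB-/- 1, 2 and 3, against 2, 1 and 2 CPM in wild type (log2 fold change 1.05, SE 0.57, adjusted p = 0.309). The thymidine kinase Tk1 was at 5, 2 and 2 CPM in TFEB-/- and at 2 CPM in each wild-type library. In Tk1 the first TFEB-/- library alone lay above wild type, and in Rrm2 TFEB-/- 3 lay 1 CPM above it as well. The clamp Pcna was at 31, 20 and 31 CPM in TFEB-/- and at 17, 25 and 15 CPM in wild type, and the groups overlapped. Tyms, which makes thymidylate, was at 6, 5 and 4 CPM in TFEB-/- and at 4, 3 and 4 CPM in wild type, which touch at 4 CPM.

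The genes of G2 and mitosis were close to absent outside TFEB-/- 1. The 12 genes summed to 27, 4 and 7 CPM in TFEB-/- 1, 2 and 3, against 3, 2 and 3 CPM in wild type. Mki67, the proliferation marker Ki-67, was at 5, 1 and 1 CPM in TFEB-/- and at 1, 0 and 1 CPM in wild type. Top2a, which untangles chromosomes, was at 4 CPM in TFEB-/- 1 and at 1 CPM in each of the other 5 libraries. In both genes TFEB-/- 2 and 3 lay within 1 CPM of every wild-type library. Neither passed the threshold (adjusted p = 0.389 for Mki67 and 0.516 for Top2a).

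The mitotic kinases and their partners had the same form. Cdk1, the kinase that starts mitosis, was at 4, 1 and 1 CPM in TFEB-/- 1, 2 and 3 and at 0, 0 and 1 CPM in wild type. The spindle kinase Aurka was at 3, 1 and 1 CPM in TFEB-/- and listed at 0 in each wild-type library (adjusted p = 0.0593, and 0.0232 with median-ratio scaling). Cdc20, which starts the exit from mitosis, was at 3, 0 and 1 CPM in TFEB-/- and listed at 0 in wild type. The cyclins Ccna2, Ccnb1 and Ccnb2, the kinase Plk1 and Birc5, known as survivin, were at 1 or 2 CPM in TFEB-/- 1 and at 0 or 1 CPM in the other 5 libraries. Ccnb2 was the one of these read in wild type, at 1, 1 and 0 CPM, against 2, 0 and 0 CPM in TFEB-/-.

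How far TFEB-/- 1 stood apart was measured for each gene as its log2(CPM + 0.5) minus the mean of TFEB-/- 2 and 3. The median over the 31 tested genes was 0.92, and 0.89 without E2f1 and Aurka, where all 12437 tested genes gave 0.17. By role, the median was 1.58 for the 5 tested genes of G2 and mitosis, 1.17 for the 8 of the helicase and 0.50 for the 6 of DNA synthesis. It was 0.37 for the 8 G1 cyclins and kinases and 0.36 for the 4 regulators. The same measure for the other libraries, each against the other 2 of its group, was −0.51 for TFEB-/- 2, −0.31 for TFEB-/- 3 and 0 for each wild-type library. The first library was the highest of the 6 in 26 of the 31 genes, or 83.9%, where 38.5% of all tested genes had it highest. It held at least 1.5 times the value of both other TFEB-/- libraries in 19 of the 31, where 8.52% of all genes did. It held at least 2 times the value of both other TFEB-/- libraries in 16 of the 31, where 3.63% of all genes did. Of these 16, Mcm2, Mcm7 and Ccnd2 averaged 5 CPM or more. The rest, E2f1 and Aurka among them, averaged less, so that a few rounding steps can make such a ratio. The shares of all genes were not matched by level.

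**Figure D3:**
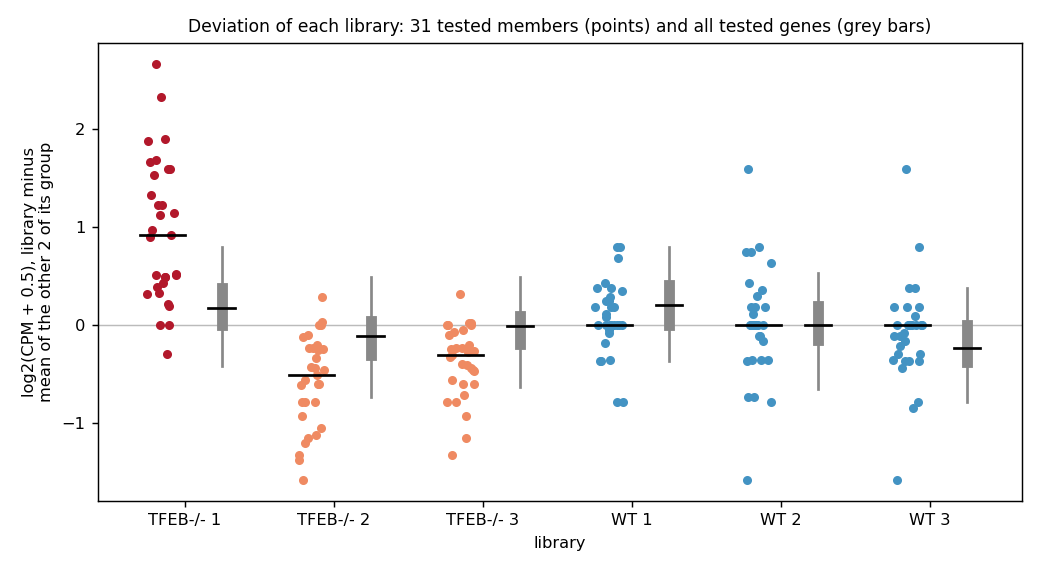
For each library, log2(CPM + 0.5) minus the mean of the other 2 libraries of its group: points are the 31 tested members with their median as a line, and grey bars span the middle 50% (thick) and 90% (thin) of all tested genes with their median. The members of TFEB-/- 1 lie around a median of 0.92, where all genes in that library lie around 0.17.

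The size of that gap changed with the filter and less with the scale. The median over the genes was 0.74 with median-ratio scaling, where all genes gave −0.01, and 0.84 with the mitochondrial transcripts left out, where all genes gave 0.06. Over the 13 members that averaged 5 CPM or more it was 0.42, where all genes gave 0.18. Mcm2, Mcm7, Gins2 and Ccnd2 are among these 13, while E2f1 and all genes of G2 and mitosis are not. The first TFEB-/- library also had the lowest share of mitochondrial transcripts, 22.2%, and the most genes at 1 CPM or more, 12664. The part of either in the result was not tested.

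Setting TFEB-/- 1 aside left a smaller difference between the genotypes. The median log2 fold change of the 31 genes was then 0.59, where all genes gave 0.17. Of the 31, 24 were positive, 3 were at 0 and 4 were negative. With all 6 libraries 28 were positive, where 79.8% of all tested genes were. Mcm2 was then at 1.23 (adjusted p = 0.179), Ccnd2 at 0.59 (adjusted p = 0.495) and Ccnd1 at 0.67 (adjusted p = 0.167). The limma count without it was 4 higher of 31, where all genes gave 2.69%. These were Mcm4, E2f1, Uhrf1 and Aurka, each with no spread within either remaining group and a difference of 1 CPM. E2f1 and Aurka were tested through the TFEB-/- libraries alone, so the filter fixed their lack of overlap, and the count is a description.

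**Figure D4:**
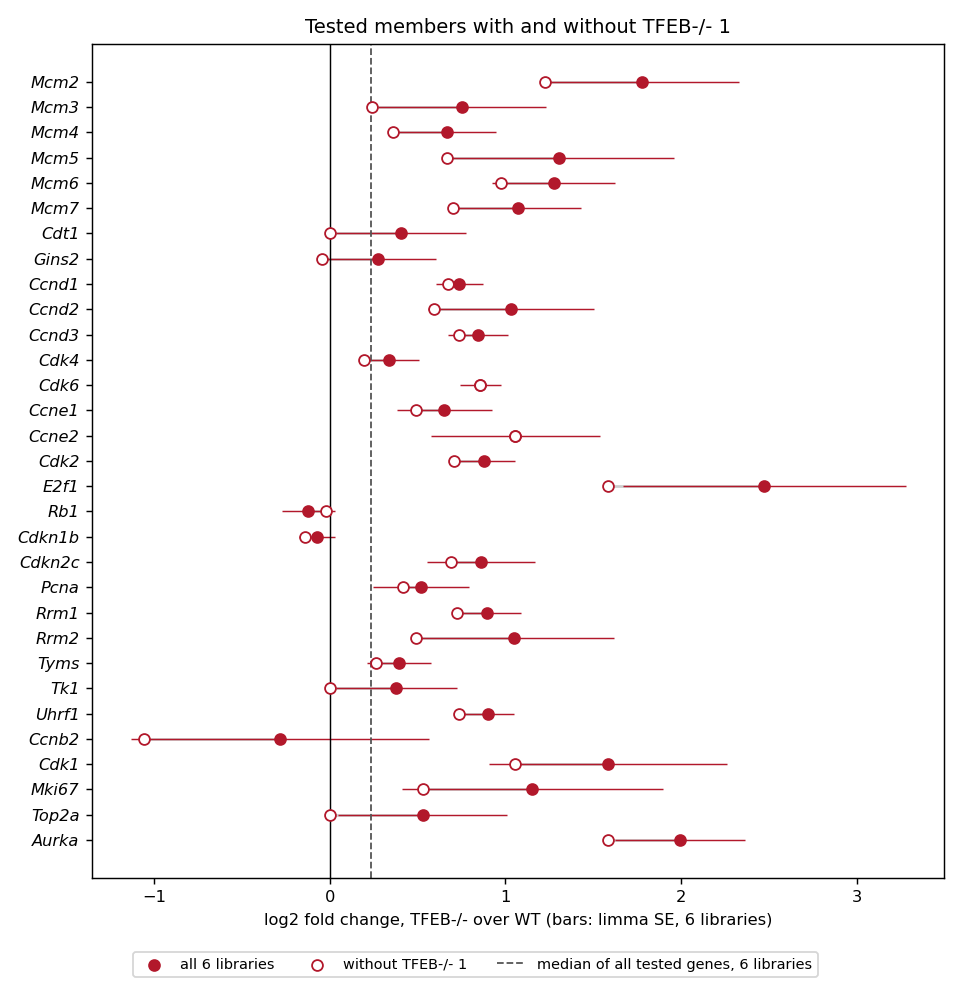
Log2 fold change, TFEB-/- over wild type, of the 31 tested genes with all 6 libraries (filled points, bars are limma SE) and without TFEB-/- 1 (open points); the dashed line is the median of all tested genes. Open points lie left of or level with the filled ones for all but Rb1, and those of Ccnd1, Ccnd3, Cdk6 and Cdk2 stay between 0.67 and 0.86.

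The count of calls depended on which low genes were tested. When the test was limited to the 8594 genes that averaged 5 CPM or more, 7 of the 13 members tested were higher, where all genes gave 6.80%: Mcm2, Mcm7, Ccnd1, Ccnd3, Cdk6, Cdk2 and Rrm1. Their adjusted p-values ran from 0.0167 to 0.0449. With the replicate number as a block, 0 of the 31 were called, with 10 at an unadjusted p below 0.05 in limma. Of all 12437 genes, 159 were called higher and 26 lower in that fit, and 3073 had an unadjusted p below 0.05. With median-ratio scaling 3 were higher, Ccnd3, Cdk2 and Aurka, where all genes gave 3.87%, and Aurka was tested through the TFEB-/- libraries alone. The median log2 fold change of the 31 was then 0.64, where all genes gave 0.01, and 28 of the 31 were positive.

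Further genes of the cycle, in lists of pathways beyond the 40, were tested in the same fit. Of 54 further genes of DNA replication 47 were tested, and 3 were higher and 1 lower in limma, where all genes gave 3.92% and 0.523%, with a median log2 fold change of 0.39. Pola2, a subunit of the polymerase that primes DNA synthesis, rose to 14, 11 and 10 CPM in TFEB-/- 1, 2 and 3, against 6, 6 and 5 CPM in wild type (log2 fold change 0.97, SE 0.15, adjusted p = 0.0425). The Pola2 call was lost when any 1 library was left out (adjusted p = 0.0585 to 0.126) and with the replicate block (adjusted p = 0.0848). Pold4, a subunit of the polymerase delta, was at 3 CPM in each TFEB-/- and 2 CPM in each wild-type library. The flap nuclease Fen1 was at 4 CPM in each TFEB-/- library and 3 CPM in each wild-type library. Pola1, the catalytic partner of Pola2, was at 1 CPM in each TFEB-/- and 2 CPM in each wild-type library. The last 3 calls rest on differences of 1 rounding step with no spread, and Pold4 and Fen1 were not called with median-ratio scaling.

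Of 33 further regulators of G1 and S, 26 were tested and 1 was higher, where all genes gave 3.92%. This was the inhibitor Cdkn2d, known as p19, which rose to 22, 18 and 18 CPM in TFEB-/- 1, 2 and 3, against 12, 13 and 11 CPM in wild type (log2 fold change 0.66, SE 0.11, adjusted p = 0.0497). The Cdkn2d call was lost when any 1 library was left out (adjusted p = 0.0801 to 0.141), with the replicate block (adjusted p = 0.116) and with median-ratio scaling (adjusted p = 0.0664). Of 46 further genes of G2 and mitosis, 25 were tested and 1 was higher, where all genes gave 3.92%. This was the kinase subunit Cks2, at 2, 1 and 1 CPM in TFEB-/- and listed at 0 in wild type. Cks2 was tested through the TFEB-/- libraries alone, so its call is given as a description. With median-ratio scaling 4 of these 25 were higher, Cks2 among them, where all genes gave 3.87%. None of 20 genes of cohesin and the anaphase-promoting complex was called by limma. An unadjusted p below 0.05 was found for 1 of them, where all genes gave 23.3%. By the rule for naming genes, Anapc5 and Anapc13 are given, which had log2 fold changes of 0.28 and 0.40.

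The same lists were read for the first TFEB-/- library. It held at least 2 times the value of both other TFEB-/- libraries in 14 of the 25 tested genes of G2 and mitosis, 7 of the 47 of replication and 3 of the 26 regulators. Of the 20 genes of cohesin and the anaphase-promoting complex it did so in 0, and among all tested genes in 3.63%. These lists were not matched by level either.

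None of the tested markers of other heart cells was at least 2 times as high in TFEB-/- 1 as in both other TFEB-/- libraries, while the sums of some lists differed between the genotypes. The 10 endothelial markers summed to 369, 404 and 444 CPM in TFEB-/- 1, 2 and 3, against 504, 420 and 455 CPM in wild type, and the 10 fibroblast markers to 125, 172 and 131 CPM in TFEB-/-, against 133, 111 and 129 CPM in wild type. In both lists TFEB-/- 1 held the lowest sum of the TFEB-/- libraries. The 10 macrophage markers summed to 47, 54 and 44 CPM in TFEB-/- and 21, 25 and 32 CPM in wild type, so the groups did not overlap, with TFEB-/- 1 in the middle of its group. The 10 markers of smooth muscle and pericytes summed to 561, 571 and 564 CPM in TFEB-/- and 466, 409 and 374 CPM in wild type. Gene by gene, 6 of these 10 had a positive log2 fold change. Their median was 0.04, below the 0.24 of all tested genes, while that of the 9 tested macrophage markers was 0.61. In limma 1 of 10 fibroblast markers, Pdgfra, and 1 of 10 markers of smooth muscle and pericytes, Cspg4, were higher, where all genes gave 3.92%. None of the endothelial and macrophage markers was called. An unadjusted p below 0.05 was found for 2 of 10 endothelial and 2 of 9 tested macrophage markers, where all genes gave 23.3%.

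Markers of lymphocytes and neutrophils were at or near 0. Of 10 lymphocyte markers 8 were at 0 in every library, among them the pan-leukocyte gene Ptprc, and the sums were 0 to 1 CPM in TFEB-/- and 1 to 2 CPM in wild type. Of 7 neutrophil markers 6 were at 0 in every library, and of 7 erythroid markers 3, with sums of 6 to 10 CPM in TFEB-/- and 5 to 35 CPM in wild type. The 7 epicardial markers summed to 15 to 18 CPM in TFEB-/- and 14 to 17 CPM in wild type, and the 5 Schwann cell markers to 3 to 5 CPM in TFEB-/- and 2 to 3 CPM in wild type. Cardiomyocyte markers summed to 93953, 73437 and 89606 CPM in TFEB-/- 1, 2 and 3, against 81963, 76811 and 61916 CPM in wild type. The part of macrophages, smooth muscle cells and pericytes in the difference between the genotypes was not tested.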

How the data were processed

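The deposited table gives 1 score per gene and library, taken to be CPM that the authors rounded to whole numbers. The table's name gives kallisto and CPM, and whether they were scaled by transcript length or across libraries is not given in the sources used here, so a level of 1 gene is not set against that of another, except that the 2 most abundant genes of a list are taken by CPM. Per the submitters' processing notes, STAR, HISAT2, kallisto, Salmon, RSEM, StringTie, DESeq2, edgeR and GRCm38 were named without roles. Names turned into dates (26) were restored by Ensembl ID, 303 missing names replaced by the ID, and values sharing a symbol summed. A gene entered the test when 3 or more libraries reached 1 CPM, which 12437 genes did. They were tested with limma 3.58.1 in R 4.3.3 on log2(CPM + 0.5), with genotype as the only term and a mean-variance trend, two-sided, adjusted by Benjamini-Hochberg over all tested genes at a threshold of 0.05. The fit was tested on simulated data. Errors are limma SE, with n = 3 libraries per group. The alternatives were another pseudocount, other filters, 2 other scalings, robust hyperparameters, a replicate block and leaving out each library. The 40 members and all lists were chosen with earlier results of these data known. All 40 members are named, and of each further list the genes past the threshold, or where none passed the 2 most abundant.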

Additional observations from a re-analysis of the deposited data

How the results depend on the processing

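Over all genes, 487 passed as higher and 65 as lower. Higher genes numbered 780 with robust hyperparameters and 159 with the replicate block, and between 248 and 516 when any 1 library was left out. They numbered 272 without TFEB-/- 3, 270 without wild type 2 and 248 without wild type 3. Lower genes numbered 200 with median-ratio scaling, 188 with CPM without the mitochondrial genome, 26 with the block, and 52 to 91 with any 1 library left out. Of the 31 members tested, 2 were higher. That count was 1 with a pseudocount of 1, where 446 of 12437 genes were higher. It was 1 of 37 with no filter on low values, where 422 of 13298 genes were higher. With a filter of a mean of at least 5 CPM it was 7 of 13, where 584 of 8594 genes were higher. It was 7 with robust hyperparameters, 0 with the block, and 0 to 4 with any 1 library left out. It was 0 without TFEB-/- 3 or wild type 3, 1 without TFEB-/- 2, wild type 1 or wild type 2 (where the gene was Ccne2), and 4 without TFEB-/- 1. No member was called lower in any of these settings. The log2 fold change of Gins2 lay between −0.046 (without TFEB-/- 1) and 0.51 and that of Ccnb2 between −1.06 and 0.10 with any 1 library left out. Neither was called. The cause of these shifts was not tested, beyond fewer libraries or other genes tested. Deviations of same-numbered libraries correlated at 0.144, −0.0492 and 0.0883 across genes, where libraries of unlike number gave −0.184 to 0.104. With 3 libraries per group, these values cannot decide whether the number pairs them. The depth is unknown, and rounding to whole CPM limits every gene of a few CPM.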

Other observations

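Pttg1, which encodes securin, a regulator of the separation of sister chromatids, followed neither the genotype nor TFEB-/- 1. It was picked out after its values were seen. It was at 36, 6 and 35 CPM in TFEB-/- 1, 2 and 3, against 2, 61 and 2 CPM in wild type 1, 2 and 3 (log2 fold change 1.49). High and low libraries thus occurred in both groups. Cenpf, a kinetochore protein also picked out after its values were seen, was at 38, 24 and 18 CPM in TFEB-/- and 11, 10 and 8 CPM in wild type, without overlap, and it was called higher with median-ratio scaling. The licensing inhibitor Gmnn, or geminin, ran the other way, at 23, 23 and 26 CPM in TFEB-/- and 31, 34 and 30 CPM in wild type, and it was called lower with median-ratio scaling. It too was picked out after its values were seen.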
